A study of Mus musculus with 12 samples.

Results

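The genes described here are 10 mouse genes of the trophectoderm, Cdx2, Eomes, Elf5, Tfap2c, Hand1, Plac1, Gata2, Gata3, Tead4 and Esx1, chosen by name and taken with every probe that carried the name. They had 11 probes among the 41174 on the array, and 10 of its 27670 gene names; Gata2 had 2 probes and each other gene had 1. RNA came from E14 cells, an established mouse embryonic stem (ES) cell line, after transfection with esiRNA, a pool of short RNAs that targets 1 transcript by RNA interference. In the p400 knockdown the esiRNA targeted p400 (Ep400), an ATPase, in the Tip60 knockdown it targeted Tip60 (Kat5), an acetyltransferase of the same chromatin complex, and in the control it targeted EGFP. Every group, the control included, received 0.33 ng/µl esiRNA and a lipid transfection reagent for 72 hr in 1 well of a dish. The p400 knockdown was measured on 4 arrays with 2 colours, each against EGFP RNA with the dyes swapped on replicates 2 and 4, and the Tip60 knockdown on 4 single-colour arrays next to 4 of EGFP.

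The trophectoderm is the outer epithelium of the blastocyst, from which the trophoblast of the placenta comes, and ES cells come from the other lineage, the inner cell mass. Tead4 acts at the top of the known network in the mouse embryo: with its cofactor Yap1 it switches on Cdx2 and Gata3 in outer cells, where the Hippo kinases are inactive. Cdx2, Eomes, Elf5 and Tfap2c then hold trophoblast stem cells in their state, and Hand1, Gata2, Esx1 and Plac1 are known from differentiating trophoblast and placenta. In ES cells most of these genes are known to be silent or low, while Tfap2c is known to be expressed.

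Cdx2, Gata3, Esx1 and Plac1 were above EGFP past the threshold in both knockdowns, and the 250 bases upstream of their transcription starts (RefSeq, build GRCm38.p6) are shown because these genes moved in one direction. Windows were at hand for 7 of the 10 genes, 10 windows in all, and not for Tfap2c, Hand1 and Tead4. Each is written 5′ to 3′ on the gene's own strand, and capitals mark matches on either strand to short motifs of the members' own factor families. Plac1 has a window for each of 2 starts.
Cdx2, chr5:147307250-147307499, minus strand: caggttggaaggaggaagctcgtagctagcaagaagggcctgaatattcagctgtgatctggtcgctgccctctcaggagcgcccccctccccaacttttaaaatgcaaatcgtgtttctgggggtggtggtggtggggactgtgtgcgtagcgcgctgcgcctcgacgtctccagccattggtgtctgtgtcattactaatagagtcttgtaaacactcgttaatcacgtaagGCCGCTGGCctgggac
Gata3, chr2:9878601-9878850, minus strand: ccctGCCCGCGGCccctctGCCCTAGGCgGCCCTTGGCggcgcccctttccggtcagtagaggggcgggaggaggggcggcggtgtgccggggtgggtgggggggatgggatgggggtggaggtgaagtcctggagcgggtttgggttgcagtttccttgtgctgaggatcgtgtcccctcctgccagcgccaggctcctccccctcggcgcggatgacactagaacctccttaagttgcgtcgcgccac
Esx1, chrX:137120327-137120576, minus strand: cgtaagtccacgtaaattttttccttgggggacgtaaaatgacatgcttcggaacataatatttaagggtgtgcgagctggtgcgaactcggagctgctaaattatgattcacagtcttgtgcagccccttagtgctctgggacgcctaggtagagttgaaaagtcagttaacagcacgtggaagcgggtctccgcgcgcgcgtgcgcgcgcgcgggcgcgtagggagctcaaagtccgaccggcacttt
Plac1, chrX:53114406-53114655, minus strand: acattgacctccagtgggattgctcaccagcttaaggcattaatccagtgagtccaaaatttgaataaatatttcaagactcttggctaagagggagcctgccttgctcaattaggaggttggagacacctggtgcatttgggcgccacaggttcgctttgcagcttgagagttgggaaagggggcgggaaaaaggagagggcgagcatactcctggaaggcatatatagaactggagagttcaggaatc
Plac1, chrX:53240111-53240360, minus strand: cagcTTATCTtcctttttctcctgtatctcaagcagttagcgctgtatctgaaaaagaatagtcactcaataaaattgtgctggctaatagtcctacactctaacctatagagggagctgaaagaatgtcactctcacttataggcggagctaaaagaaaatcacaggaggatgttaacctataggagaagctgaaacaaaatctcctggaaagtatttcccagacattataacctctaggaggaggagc

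The motifs searched were GGAATG for TEAD factors, AGATAA for GATA factors, GCCNNNGGC for AP-2 factors such as Tfap2c, GGTGTGA for T-box factors and TTTATG for CDX factors. The AP-2 motif reads the same on both strands and was counted once. It occurred 1 time in the Cdx2 window and 3 times in the Gata3 window, where the matches do not overlap, and 13.7% of all 32851 windows of this length held it. A window of Gata2 held it as well, which makes 3 of the 10 member windows. The GATA motif occurred in 1 of the Plac1 windows, against 9.99% of all windows, and the Esx1 window held none of the 5 motifs. Elsewhere among the members, the TEAD motif occurred in a window each of Elf5 and Gata2, against 12.6% of all windows. A window of Elf5 held the T-box and the CDX motif, against 3.33% and 10.8% of all windows. The windows differed widely in CpG content: the ratio of observed to expected CpG was 1.34 upstream of Esx1 and 0.0814 in a window of Elf5, with a member median of 0.627 against 0.374 over all windows. These matches describe letters in a window and say nothing of what binds there.

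The targeted genes were checked first. The brightest Ep400 probe had log2 ratios of p400 over EGFP of -0.65, -0.77, -0.24 and -0.67 on replicates 1 to 4. Its fitted change was -0.58 (limma, adjusted p = 0.0056), and another Ep400 probe had ratios of 0.06, -1.12, -0.57 and -1.24. A further Ep400 probe had 0.45, 0.25, 0.25 and -0.05, so the probes disagreed. Kat5 had log2 levels of -0.19, -0.30 and -0.27 on Tip60 replicates 1, 2 and 4, against 1.16, 1.15, 1.22 and 1.39 on the EGFP arrays, a difference of -1.49 (limma, adjusted p = 1.36e-05). Kat5 also fell by 0.43 on the log2 scale in p400 knockdown (adjusted p = 0.0109), and Ep400 did not pass in Tip60 knockdown (0.17, adjusted p = 0.0901). Of the 9 ES cell identity genes tested, none rose and 2 fell in p400 knockdown, where 20.1% and 15.0% of all genes did so. In Tip60 knockdown 1 rose and 2 fell, where 15.3% and 10.3% of all genes did so. Pou5f1 and Nanog did not pass in either, with fitted log2 values of 0.04 and 0.11 for p400 and 0.06 and 0.00 for Tip60. Zfp42 did not pass either, at 0.22 for p400 (adjusted p = 0.0507) and -0.03 for Tip60. Sox2 fell by 0.21 on the log2 scale in p400 and by 0.21 in Tip60 knockdown (adjusted p = 0.0479 and 0.0197). The nuclear receptor gene Esrrb fell by 0.25 in p400 knockdown (adjusted p = 0.0488). In Tip60 knockdown the factor gene Klf4 fell by 0.48 (adjusted p = 0.0015) and Tdgf1, which encodes a Nodal coreceptor, rose by 0.38 (adjusted p = 0.0033). Tip60 replicate 3 stood apart, with 22188 spots well above background against 26411 to 30107 on the other Tip60 arrays and 25073 to 28054 on the EGFP arrays. The submitters left it out, and the Tip60 comparison here uses replicates 1, 2 and 4. Among all genes tested, 57.3% of p400 calls and 59.7% of Tip60 calls were higher; centring each p400 array on its median made this 29.8%, and the deposited log ratios made it 47.6% and scaling the arrays to a common spread 77.5%. For Tip60, quantile normalization made it 47.2% and the array median as the base 22.8%, so the balance of rises and falls depends on the scaling.

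After p400 knockdown, 6 of the 10 trophectoderm genes rose and 2 fell at an adjusted p of 0.05 or less (limma over 18691 genes, Benjamini-Hochberg). Over all genes tested, 20.1% rose and 15.0% fell. Esx1, Hand1, Gata2, Cdx2, Gata3 and Plac1 rose, Tfap2c and Tead4 fell, and Eomes and Elf5 did not pass. As processed here no change reached 2-fold, while the deposited log ratios put Cdx2, Plac1, Gata3, Hand1, Esx1 and Elf5 above it (1.77, 1.41, 1.32, 1.19, 1.04 and 1.02 on the log2 scale). The median log2 ratio of the 10 genes was 0.44, against 0.01 over all genes. The ratio had one sign on all 4 arrays for each of the 10, above EGFP for 8 and below for 2, where 28.5% and 24.5% of all genes did so. In bulk RNA a change in the number of cells that express a gene and a change in its RNA per cell cannot be told apart. Where a gene was dim in EGFP RNA, it was tested because it was bright in knockdown RNA, which held for Cdx2 and Elf5 on the p400 arrays.

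**Figure D1:**
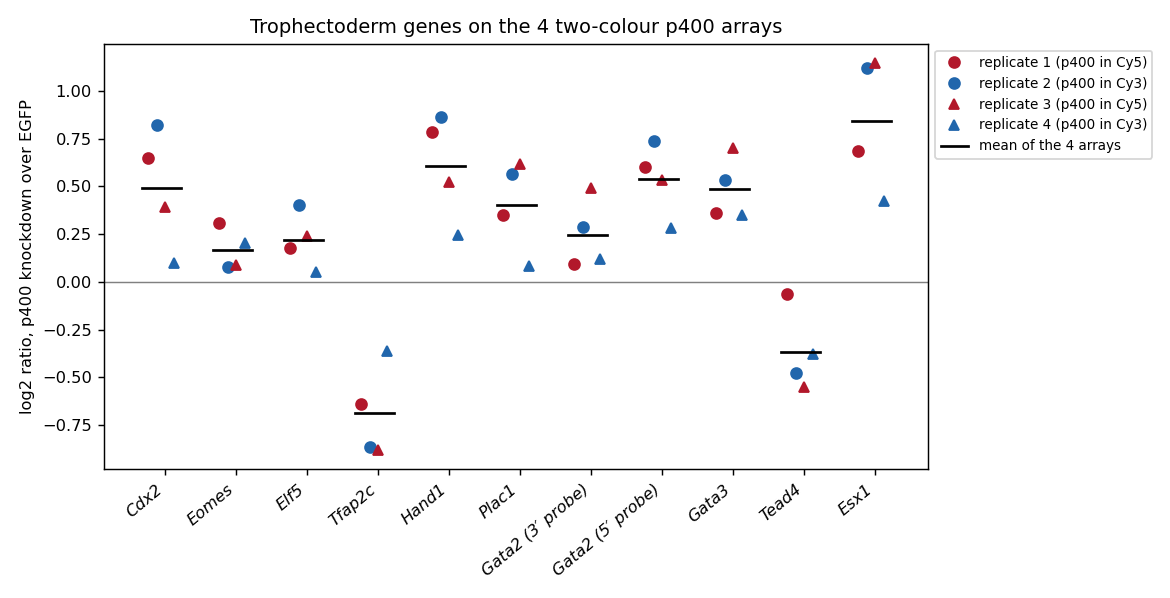
Log2 ratio of p400 knockdown over EGFP for each probe of the trophectoderm genes on each 2-colour array, with colours for the dye that carried the p400 RNA and a bar at the mean of the 4 arrays. All 4 ratios of Tfap2c and Tead4 lie below 0 and those of the other 9 probes above it, and replicate 4 has the smallest ratio for 8 of the 11 probes.

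Tead4, the TEA-domain factor upstream of Cdx2, fell modestly after p400 knockdown. Its probe (chr6:128250598-128250657, minus strand, build mm7) had ratios of -0.07, -0.48, -0.55 and -0.38 on replicates 1 to 4. Replicate 1 was close to 0 and the other 3 were well below it. The fitted log2 change was -0.37 ± 0.09 (SE, n = 4), with an adjusted p of 0.0285 in limma. The call was lost without replicate 2, 3 or 4, at adjusted p of 0.119, 0.0749 and 0.0684, and after scaling the arrays to a common spread (adjusted p = 0.0828).

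Cdx2, the homeobox factor that specifies the trophectoderm and opposes Pou5f1 in the mouse embryo, was low on these arrays. Its probe (chr5:146195375-146195434, minus strand, mm7) was well above background in p400 RNA on all 4 arrays, but in EGFP RNA on 2. The ratios were 0.65, 0.82, 0.39 and 0.10, so the size differed several-fold between arrays while the sign did not. The fitted change was 0.49 ± 0.13 (SE, n = 4, limma adjusted p = 0.0293), or 1.40-fold, with a 95% interval from 0.18 to 0.80. The call was lost without replicate 1, 2 or 3 (adjusted p = 0.0963, 0.0989 and 0.056). It was also lost after scaling the arrays to a common spread (adjusted p = 0.0628) and with no filter on dim probes (adjusted p = 0.0552). The offset of 50 added in background correction draws ratios of dim probes towards 0. The deposited log ratios, which have no such offset and were used without the loess step, gave 1.77 for Cdx2. Leaving out background correction alone gave 0.59. Which step accounts for these differences in size was not tested.

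Gata3, a zinc-finger factor that Tead4 switches on beside Cdx2, had ratios of 0.36, 0.53, 0.70 and 0.35. All 4 lay within a narrow range above 0, and the probe (chr2:9796514-9796573, minus strand, mm7) was well above background in both RNAs on every array. The fit gave 0.49 ± 0.08 (SE, n = 4, limma adjusted p = 0.0082), and 1.32 from the deposited log ratios. The call was lost after scaling the arrays to a common spread (adjusted p = 0.0502).

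Gata2, which with Gata3 controls genes of trophoblast giant cells, was read by 2 probes on chromosome 6 a short way apart, and they did not give the same size. The first 30 of the 60 bases of each are shown so that the readings can be told apart.
Gata2 5′ probe, chr6:88281461-88281520, plus strand, mm7: aactgcataagcttaacccgctgatgagtg
Gata2 3′ probe, chr6:88281934-88281993, plus strand, mm7: ctagtacccgcataagagaagaatcggcag
The 5′ probe had ratios of 0.60, 0.74, 0.53 and 0.28, and the 3′ probe 0.09, 0.29, 0.49 and 0.12. Both were above 0 on every array. The 5′ probe, the brighter on these arrays and so the one used for the gene, rose by 0.54 ± 0.09 (SE, n = 4, limma adjusted p = 0.0078). In the fit over every probe the 3′ probe gave 0.25 ± 0.09 and did not pass (adjusted p = 0.0740). With every probe fitted, 6 of the 11 rose and 2 fell, against 18.1% and 15.1% of all 27952 probes.

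Of the genes other than Cdx2 that hold the trophoblast stem cell state, Tfap2c, which encodes AP-2γ, fell, and Eomes and Elf5 did not pass. The probe of Tfap2c (chr2:172351014-172351073, plus strand, mm7) gave log2 levels of 11.50, 11.66, 11.66 and 11.80 in p400 RNA, against 12.14, 12.53, 12.54 and 12.16 in EGFP RNA of the same arrays. Every p400 level lay below every EGFP level. The ratios were -0.64, -0.87, -0.88 and -0.36, with a fitted change of -0.69 ± 0.10 (SE, n = 4, limma adjusted p = 0.0053), or 1.61-fold lower than EGFP. This call held under all 13 alternatives tried, from -0.997 to -0.562.

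Eomes, a T-box factor needed for trophoblast proliferation, had ratios of 0.31, 0.08, 0.09 and 0.20 (chr9:118163832-118163891, plus strand, mm7). They were all above 0 but small, and the fit of 0.17 ± 0.07 did not pass (SE, n = 4, limma adjusted p = 0.120). Elf5, an ETS factor that reinforces Cdx2 and Eomes in trophoblast stem cells, had ratios of 0.18, 0.40, 0.24 and 0.05 (chr2:103301588-103301647, plus strand, mm7). Its fit of 0.22 ± 0.08 did not pass (adjusted p = 0.0847), and the probe was well above background in EGFP RNA on 1 array of 4. The deposited log ratios gave 1.02 for Elf5 and passed (adjusted p = 0.0078), and leaving out background correction alone gave 0.26. Its size thus depends on the processing, and which step accounts for this was not tested.

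Esx1, Hand1 and Plac1, the remaining genes of later trophoblast, all rose after p400 knockdown. Esx1, an X-linked homeobox gene of the placenta, had log2 levels of 9.01, 9.14, 9.14 and 8.86 in p400 RNA, against 8.32, 8.02, 7.99 and 8.44 in EGFP RNA (chrX:131834651-131834710, minus strand, mm7). The lowest p400 level was above the highest EGFP level. Its ratios were 0.68, 1.12, 1.15 and 0.42 and its fitted change was 0.84 ± 0.14 (SE, n = 4, limma adjusted p = 0.0067), or 1.79-fold. It was the largest of the 10 as processed here, but in the deposited log ratios it was 1.04, below Cdx2, Plac1, Gata3 and Hand1. Hand1, a basic helix-loop-helix factor needed for trophoblast giant cells and also known from extraembryonic mesoderm and heart, had ratios of 0.79, 0.87, 0.52 and 0.25 (chr11:57910385-57910444, minus strand, mm7). It rose by 0.60 ± 0.12, or 1.52-fold (SE, n = 4, limma adjusted p = 0.0112). Plac1, an X-linked gene for a secreted or membrane protein of the trophoblast, had ratios of 0.35, 0.56, 0.62 and 0.09 (chrX:48162756-48162815, minus strand, mm7). It rose by 0.40 ± 0.10, or 1.32-fold (adjusted p = 0.0260). Without replicate 2 or 3 the adjusted p was 0.124 or 0.0935, and after scaling the arrays to a common spread it was 0.0583. The deposited log ratios gave 1.41 for Plac1 and 1.19 for Hand1.

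Replicate 4 gave the smallest ratio for 8 of the 11 probes. This was common to the array: among the 6575 genes called with a ratio on every array, 54.1% had their smallest ratio there, and the SD of the log2 ratios over all genes was 0.36 on replicate 4 against 0.48 to 0.53 on the others. Each probe's mean ratio had the same sign with p400 RNA in Cy5 as in Cy3.

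After Tip60 knockdown, 5 of the 10 genes rose and 1 fell at an adjusted p of 0.05 or less (limma over 16949 genes), where 15.3% of all genes rose and 10.3% fell. Plac1, Eomes, Esx1, Cdx2 and Gata3 rose and Tfap2c fell, while Elf5, Hand1, Gata2 and Tead4 did not pass. The median log2 difference of the 10 genes was 0.40, against 0.01 over all genes. The 3 Tip60 arrays lay above all 4 EGFP arrays for 6 genes and below them for 1, against 19.7% and 16.8% of all genes. Levels in this comparison are log2 processed signals relative to the 75th percentile of the array, so 0 is the level of a fairly bright spot and negative values are dimmer ones. Levels of different probes cannot be set against each other.

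**Figure D2:**
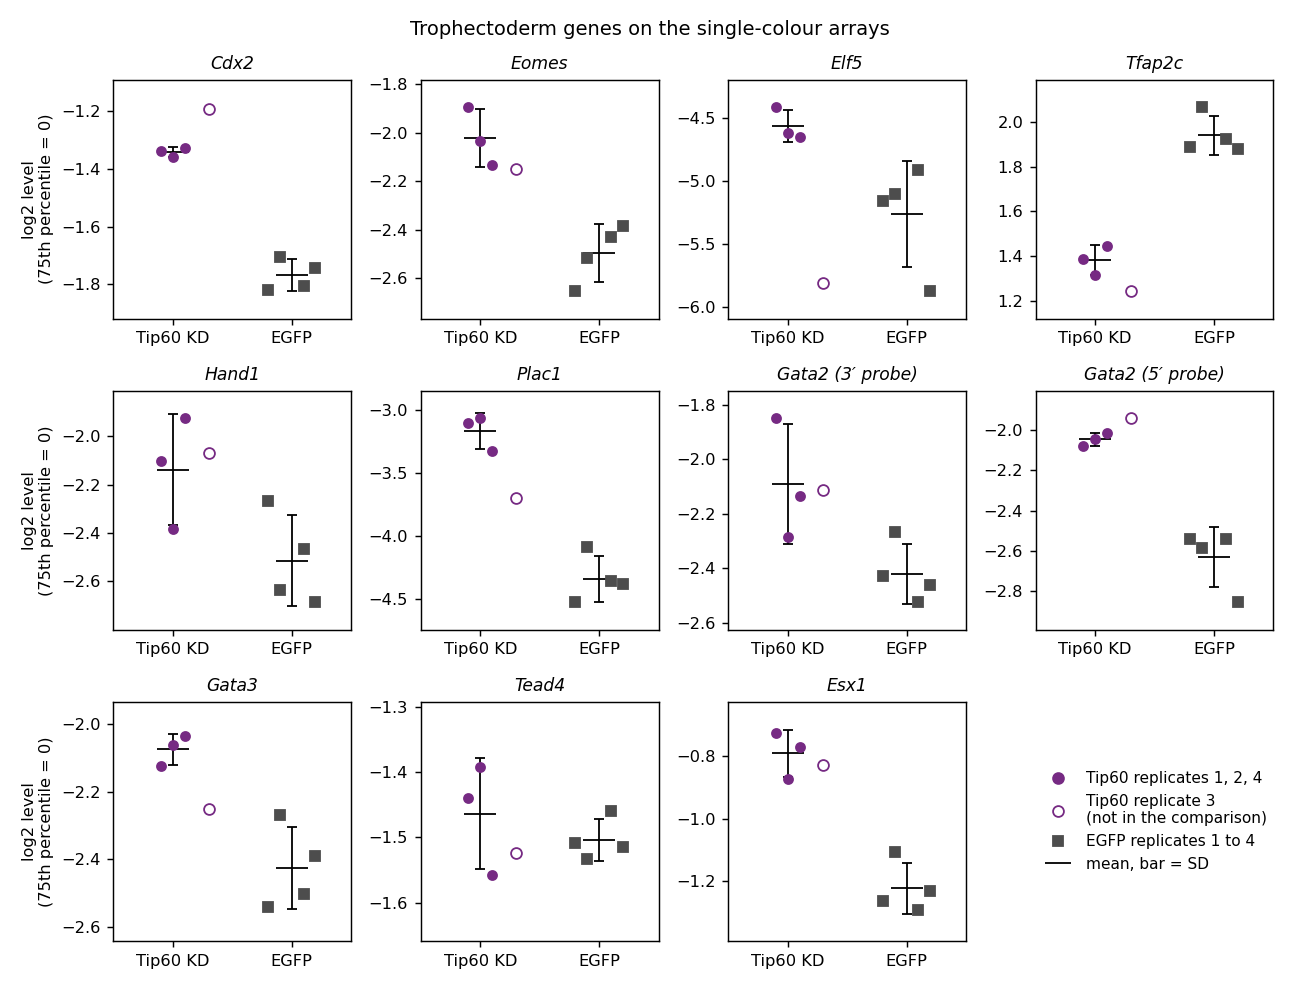
Log2 level of each probe, relative to the 75th percentile of the array, on the Tip60 arrays and the EGFP arrays, with means and SD over Tip60 replicates 1, 2 and 4 and over the 4 EGFP replicates; the open circle is Tip60 replicate 3, which is in neither. The filled Tip60 points lie above all EGFP points for Cdx2, Eomes, Elf5, Plac1, the Gata2 5′ probe, Gata3 and Esx1, below them for Tfap2c, and among them for Hand1, the Gata2 3′ probe and Tead4.

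Tead4 had levels of -1.44, -1.39 and -1.56 on Tip60 replicates 1, 2 and 4, against -1.51, -1.53, -1.46 and -1.52 on the EGFP arrays. The groups overlapped, and the difference of 0.04 ± 0.06 did not pass (SE, n = 3 and 4, limma adjusted p = 0.656). Its 95% interval ran from -0.09 to 0.17.

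Cdx2 had levels of -1.34, -1.36 and -1.33 on the Tip60 arrays, against -1.82, -1.70, -1.80 and -1.74 on the EGFP arrays. The groups were tight and far apart. The difference was 0.43 ± 0.05 (SE, n = 3 and 4, limma adjusted p = 0.0010), or 1.34-fold, and here the probe was well above background on every array. The call was lost under 2 of 20 alternatives, among them the array median as the base (0.22, adjusted p = 0.109). Gata3 had -2.12, -2.06 and -2.03 on the Tip60 arrays, against -2.54, -2.27, -2.50 and -2.39 on the EGFP arrays. The groups did not overlap, and the difference was 0.35 ± 0.08 (adjusted p = 0.0144). It failed under 8 of 20 alternatives, among them quantile normalization (0.25, adjusted p = 0.0733) and leaving out Tip60 replicate 4 (adjusted p = 0.0553).

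The Gata2 probes again differed. The 5′ probe had levels of -2.08, -2.04 and -2.02 on the Tip60 arrays, against -2.54, -2.58, -2.54 and -2.85 on the EGFP arrays, without overlap. The 3′ probe had -1.85, -2.28 and -2.13 on the Tip60 arrays, against -2.43, -2.27, -2.52 and -2.46 on the EGFP arrays, and its groups overlapped at Tip60 replicate 2. The 3′ probe was the brighter on the single-colour arrays and stood for the gene there, at 0.33 ± 0.11 (SE, n = 3 and 4, limma adjusted p = 0.0720). Without Tip60 replicate 2 it was 0.43 and passed (adjusted p = 0.0399). In the fit over every probe the 5′ probe rose by 0.58 ± 0.09 (adjusted p = 0.0035) and the 3′ probe did not pass (adjusted p = 0.0771). With every probe fitted, 6 of the 11 rose and 1 fell, against 13.2% and 9.48% of all 25303 probes. So the reading of Gata2 rests on the probe in both knockdowns, with the 5′ probe past the threshold in each.

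Among the stem cell factors other than Cdx2, Eomes rose, Tfap2c fell, and Elf5 did not pass. Eomes had levels of -1.89, -2.04 and -2.13 on the Tip60 arrays, against -2.65, -2.52, -2.43 and -2.38 on the EGFP arrays. All 3 Tip60 values lay above the EGFP values, and the difference was 0.47 ± 0.09 (SE, n = 3 and 4, limma adjusted p = 0.0073), or 1.39-fold. Under 6 of 20 alternatives it no longer passed, with differences from 0.25 to 0.55. Tfap2c had 1.39, 1.31 and 1.45 on the Tip60 arrays, against 1.89, 2.07, 1.92 and 1.88 on the EGFP arrays. These groups stood far apart, with a difference of -0.56 ± 0.07 (adjusted p = 0.0010), or 1.47-fold lower than EGFP. Elf5 had -4.42, -4.62 and -4.65 on the Tip60 arrays, against -5.16, -5.11, -4.91 and -5.88 on the EGFP arrays. The groups did not overlap, but EGFP replicate 4 lay far below its group and the probe cleared background on 3 of these 4 arrays. The difference of 0.70 ± 0.22 did not pass (adjusted p = 0.0545); without EGFP replicate 4 it was 0.50 and passed (adjusted p = 0.0164), and without EGFP replicate 3 it was 0.82 and passed (adjusted p = 0.0378).

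Of the later trophoblast genes, Plac1 had the largest difference among the 10 in this comparison as processed here. It had levels of -3.10, -3.07 and -3.33 on the Tip60 arrays, against -4.52, -4.09, -4.36 and -4.38 on the EGFP arrays. The groups were separated by far more than their spread, and the probe was well above background on all 7 arrays. The difference was 1.17 ± 0.11 (SE, n = 3 and 4, limma adjusted p = 0.000439), or 2.25-fold, and it passed under all 20 alternatives, with values from 0.48 to 1.26. The lowest of these, 0.48 and 0.52, came from normexp with quantile normalization and from the deposited series matrix. Esx1 had -0.73, -0.87 and -0.77 on the Tip60 arrays, against -1.26, -1.11, -1.29 and -1.23 on the EGFP arrays. It rose without overlap by 0.43 ± 0.07 (adjusted p = 0.0033). The call was lost under 3 of 20 alternatives, among them the array median as the base (0.22, adjusted p = 0.126). Hand1 had -2.10, -2.38 and -1.93 on the Tip60 arrays, against -2.27, -2.64, -2.47 and -2.69 on the EGFP arrays. These groups overlapped and the difference of 0.38 ± 0.14 did not pass (adjusted p = 0.0910). Without Tip60 replicate 2 it was 0.50 and passed (adjusted p = 0.0457).

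The single-colour arrays came from 2 slides, and slide is the only batch the file headers give. One slide held Tip60 replicates 2 and 4 with EGFP replicates 1 and 3, and the other Tip60 replicate 1 with EGFP replicates 2 and 4. Within the first slide 4 genes rose and 1 fell past the threshold, where 1424 of all 16939 genes rose and 441 fell. Within the second, which has a single Tip60 array whose spread is assumed to be that of the EGFP arrays, 2 rose and none of the 10 fell, where 1716 of all 16947 genes rose and 161 fell. Few genes were called lower there, and the Tfap2c difference, no longer called, was as large as over all arrays. With slide as a block 6 rose and 1 fell, where 2853 and 1966 of all 16949 genes did so. Each of the 10 differences had the same sign within both slides as over all 7 arrays: Plac1 was 1.25 and 1.13, Cdx2 0.47 and 0.39, Tfap2c -0.53 and -0.59, Eomes 0.46 and 0.55, Esx1 0.45 and 0.44, and Gata3 0.47 and 0.21. Hand1 was 0.21 and 0.56, and it is among those that rose in the second slide though not called over all 7 arrays. The 4 p400 arrays shared a slide of their own.

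Set side by side, the changes in p400 and Tip60 knockdown were 0.49 and 0.43 for Cdx2, -0.69 and -0.56 for Tfap2c, and 0.49 and 0.35 for Gata3. They were 0.84 and 0.43 for Esx1, 0.40 and 1.17 for Plac1, and -0.37 and 0.04 for Tead4. The comparisons used different arrays, colours and normalization, and whether their EGFP RNA came from the same cultures is not stated. The difference between the knockdowns was not tested here, so a gene past the threshold in one and not in the other is not shown to differ between them.

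**Figure D3:**
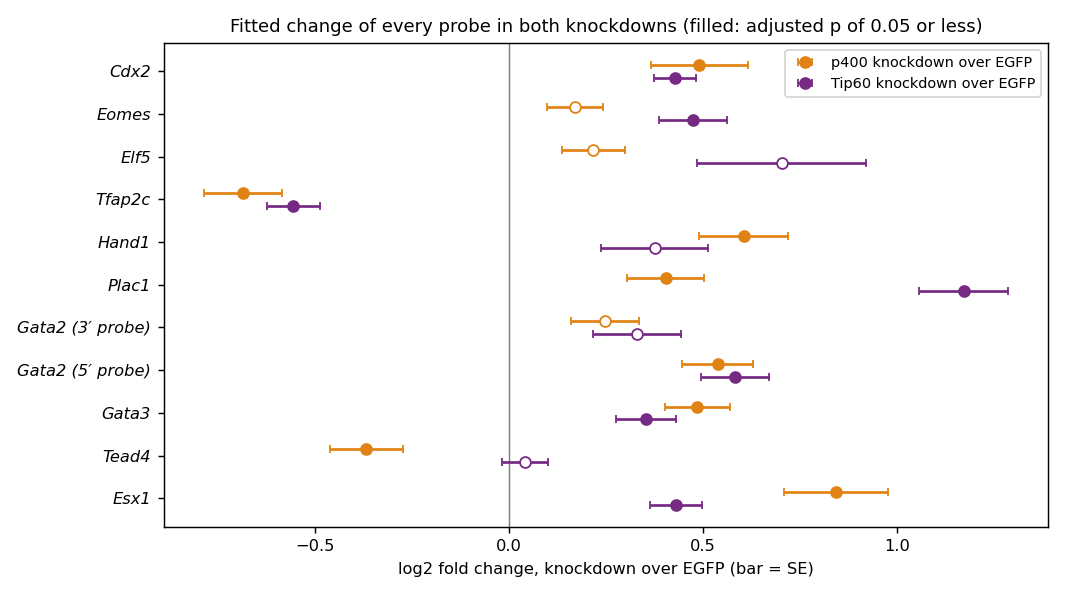
Fitted log2 change of every probe of the trophectoderm genes, p400 knockdown over EGFP above and Tip60 knockdown over EGFP below in each pair, with SE bars and filled points where the adjusted p was 0.05 or less in the fit over every probe. Cdx2, Plac1, the Gata2 5′ probe, Gata3 and Esx1 are filled to the right of 0 in both, and Tfap2c to the left.

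The genes around the network were read from lists that surround the 10. In the Hippo pathway and the other TEAD factors, 1 of 14 genes rose and 4 fell after p400 knockdown, with a median of -0.02, where 20.1% and 15.0% of all genes did so, and 1 rose and 5 fell after Tip60 knockdown, with a median of -0.14, where 15.3% and 10.3% did so. The gene that rose was Amot, an angiomotin that holds Yap1 in the cytoplasm, with ratios of 1.49, 1.65, 2.18 and 1.43 and a fit of 1.69 in p400 (adjusted p = 0.000866) and 0.53 in Tip60 knockdown (adjusted p = 0.0034). Nf2, an activator of the Hippo kinases, fell by 0.62 and 0.46 on the log2 scale in p400 and Tip60 knockdown, and Tead2, a relative of Tead4, by 0.47 and 0.40.

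Of the trophoblast stem cell genes outside the 10, 11 of 12 were tested, and no common direction appeared: 2 rose and 4 fell in p400 knockdown (20.1% and 15.0% of all genes), and 2 rose and 2 fell in Tip60 knockdown (15.3% and 10.3% of all genes). The shares of rises were thus near those over all genes. The inhibitor Id2 rose by 0.88 and the ligand Nodal by 0.73 in p400, where the protease gene Furin fell by 0.35 and the ETS factor Ets2 by 0.33. In Tip60 knockdown Tfap2a, a relative of Tfap2c, rose by 0.52 and the ligand Bmp4 by 0.22, while Ets2 fell by 0.40 and the receptor Bmpr2 by 0.38. Ets2, which acts upstream of Cdx2 in trophoblast stem cells, thus fell in each.

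In the epithelium list, 5 of 14 genes rose and 2 fell in p400 knockdown (median 0.13; all genes 20.1% and 15.0%), and 2 rose and 3 fell in Tip60 knockdown (median 0.09; all genes 15.3% and 10.3%). The share that fell in p400 and the share that rose in Tip60 knockdown were near those over all genes. Aqp3, a water and glycerol channel, rose by 1.24 in p400 and 1.13 in Tip60 knockdown. The keratin Krt18 rose by 0.90 in p400 knockdown and the endocytic adaptor Dab2, which the endoderm list holds as well, by 0.24 in Tip60 knockdown. Dab2 also rose in p400 knockdown, by 0.78, as did the keratins Krt8 by 0.90 and Krt7 by 0.40. The tight-junction claudins went the other way: Cldn4 fell by 0.80 and Cldn7 by 0.57 in p400 knockdown, and Cldn4 by 0.45 and Cldn6 by 0.30 in Tip60 knockdown.

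Of the 20 placental trophoblast genes on the array, 12 were bright enough to test, and 5 rose and 1 fell in p400 knockdown (median 0.20), against 20.1% and 15.0% of all genes. In Tip60 knockdown 4 rose and 1 fell (median 0.19), against 15.3% and 10.3%. Cdkn1c, a cell cycle inhibitor, rose by 1.58 in p400 knockdown, where Cited1, a transcriptional cofactor, had ratios of 1.22, 0.97, 1.19 and 0.63 and also rose (adjusted p = 0.00116). Cyp11a1, the first enzyme of steroid synthesis, rose by 1.13 and Cited1 by 0.90 in Tip60 knockdown. Phlda2, an imprinted gene that limits placental growth, fell by 0.73 in p400 and 0.75 in Tip60 knockdown. Tpbpa and Tpbpb of the spongiotrophoblast and Gcm1 and Synb of the labyrinth were not well above background on any EGFP array of either kind. The placental lactogen genes Prl3d1 and Prl3b1 of giant cells, in contrast, were so on all 4 of each kind, and Prl3b1 rose in p400 knockdown (0.31, adjusted p = 0.0213).

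Genes of other lineages moved beside the 10. Of the endoderm genes, 7 of 10 rose in p400 knockdown (median 0.63), against 20.1% of all genes, and 7 of 9 in Tip60 knockdown (median 0.47), against 15.3%, and none of those tested fell. Gata6 rose by 1.26 and Sox17 by 1.01 in p400 knockdown, and Sox17 by 1.18 in Tip60 knockdown, where Afp also rose. Afp is counted among the rises in both, but in EGFP RNA its probe did not clear background on any array of either kind, so it was tested through the knockdown RNA. Of the mesoderm genes, 3 of 9 rose and 1 fell in p400 knockdown (all genes 20.1% and 15.0%), and 5 of 9 rose in Tip60 knockdown (all genes 15.3%). Snai1 rose by 2.07 and Fgf8 by 0.48 and Tbx6 fell by 0.46 in p400 knockdown; Snai1 rose by 1.51 in Tip60 knockdown, and Evx1 by 1.90, whose probe stood clear of background on a single EGFP array, 1 of 4. Of the fibroblast genes, 5 of 7 rose in p400 (all genes 20.1%) and 3 of 7 in Tip60 knockdown (all genes 15.3%), led by Thy1 (1.43 and 1.25). Several of the 10, Hand1, Eomes, Gata2 and Gata3 among them, are also expressed outside the trophoblast, so these values stand beside theirs.

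Summed over a list, endoderm signal was 3184 to 5117 intensity units per p400 channel, against 2085 to 3300 in the EGFP channels of those arrays. It was 2.64 to 2.87 times the 75th percentile on the Tip60 arrays, against 2.16 to 2.35 on the EGFP arrays. Mesoderm signal was 2111 to 3017 in p400 against 1641 to 1796 in EGFP channels, and 1.92 to 2.09 on Tip60 against 1.20 to 1.38 on EGFP arrays. Fibroblast signal was 8841 to 12800 in p400 against 7026 to 8927 in EGFP channels, and 15.05 to 15.35 on Tip60 against 14.53 to 16.41 on EGFP arrays. Thus mesoderm and, on the single-colour arrays, endoderm sums did not overlap between knockdown and EGFP, while the fibroblast sums did overlap. A sum is weighted to its brightest probes. Acta2 was the brightest fibroblast gene, at a mean log2 level of 3.61 on the single-colour EGFP arrays, with Thy1 next at 0.24. Acta2 did not pass in either knockdown (limma adjusted p = 0.898 in p400 and 0.0562 in Tip60), while 5 and 3 of the 7 genes rose. How often sums over other gene sets do not overlap was not tested. The sum over the placental trophoblast genes was 17100 to 23570 in p400 against 17190 to 19980 in EGFP channels, and 37.83 to 40.04 on Tip60 against 43.91 to 49.87 on EGFP arrays. The gene of that list that fell, Phlda2, had a mean log2 level of 4.18 on Tip60 against 4.93 on EGFP arrays, while 4 others rose. The epithelium sum was 44070 to 47890 in p400 against 28840 to 31020 in EGFP channels, without overlap, and 102.6 to 120.0 on Tip60 against 95.44 to 105.7 on EGFP arrays, with overlap. Its brightest genes were the keratins Krt18 and Krt8, at mean log2 levels of 5.58 and 4.98 on the single-colour EGFP arrays. Both rose by 0.90 in p400 knockdown, where the median of the list was 0.13, and neither passed in Tip60 knockdown. The Hippo sum was 17680 to 19170 in p400 against 18010 to 19720 in EGFP channels, with overlap, and 22.25 to 23.04 on Tip60 against 25.33 to 26.97 on EGFP arrays, without. Of the fibroblast genes, Dcn and Lum were not well above background on any EGFP array. The part of these markers in the trophectoderm results was not tested.

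**Figure D4:**
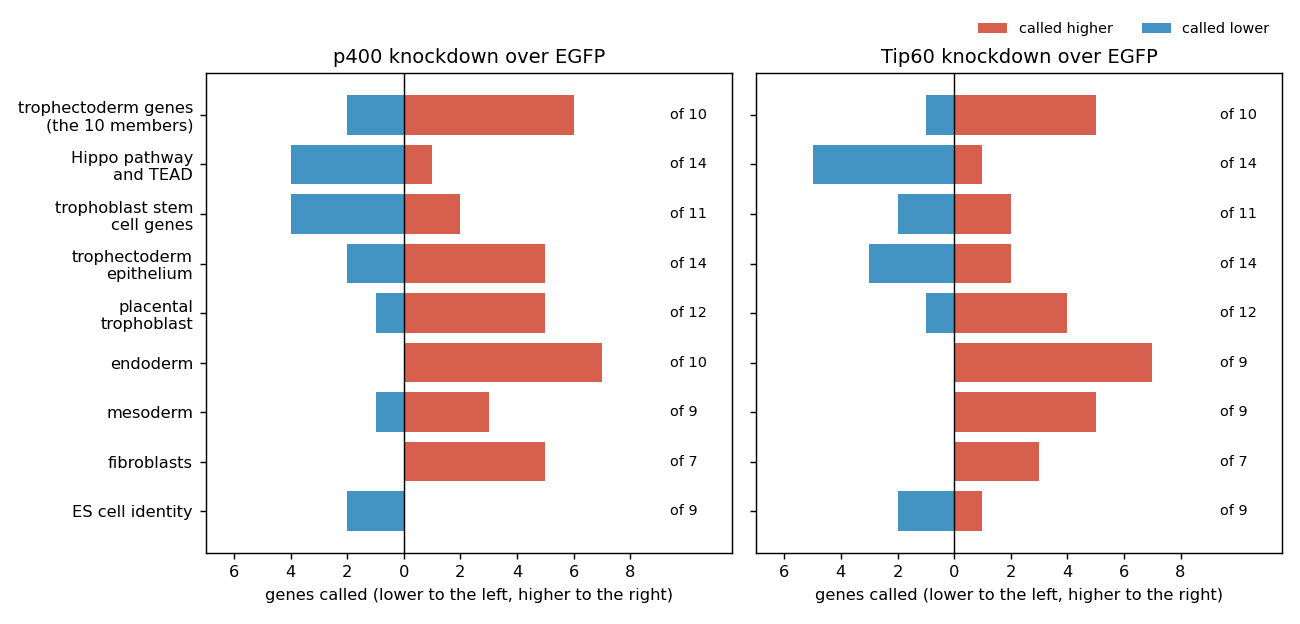
Number of genes called higher (right) and lower (left) at an adjusted p of 0.05 or less in each list, for p400 knockdown over EGFP on the left and Tip60 knockdown over EGFP on the right, with the number tested at the right of each row. The 10 trophectoderm genes had 6 higher and 2 lower in p400 and 5 higher and 1 lower in Tip60 knockdown, and the Hippo list 1 higher and 4 lower in p400 and 1 higher and 5 lower in Tip60 knockdown, where 20.1%, 15.0%, 15.3% and 10.3% of all genes were so called.

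**Figure D5:**
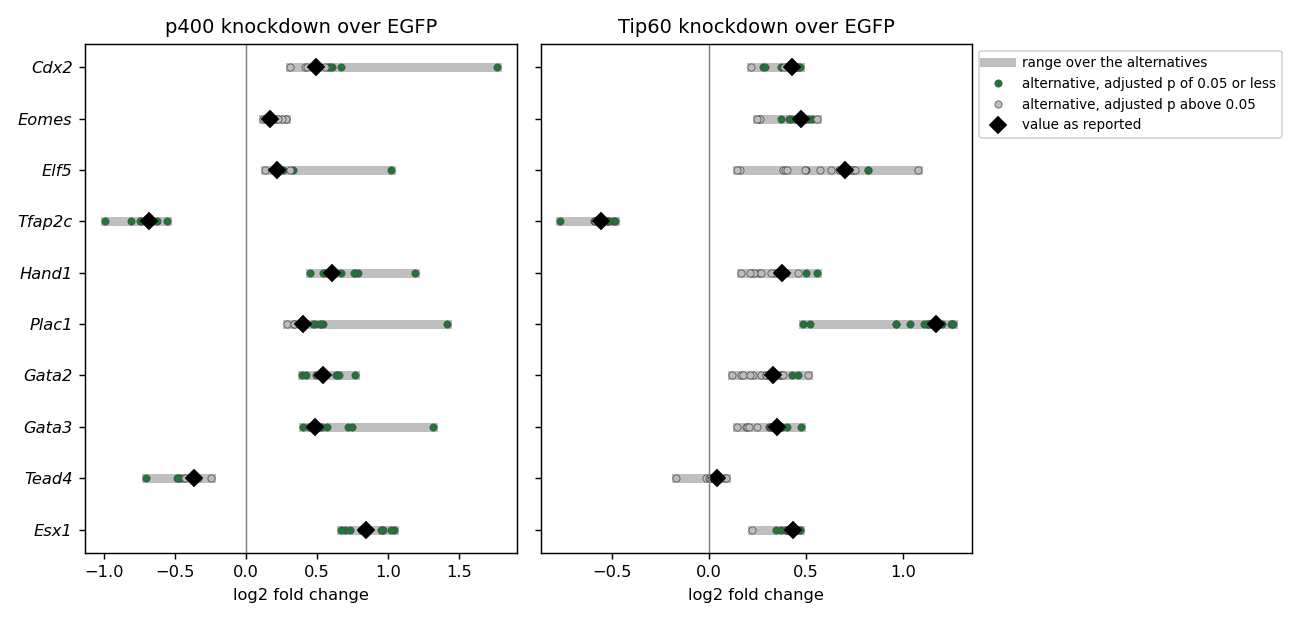
Log2 change of each gene over all processing alternatives (grey bar), with a small point for each alternative, green at an adjusted p of 0.05 or less, and a diamond for the value reported, for p400 on the left and Tip60 on the right. The bar of Tead4 in Tip60 knockdown crosses 0, from -0.17 to 0.09, and no other bar does; the far p400 points of Cdx2, Elf5, Hand1, Plac1 and Gata3 are the deposited log ratios.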

How the data were processed

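Per the file headers, Agilent arrays of design 014868 were read with Feature Extraction 9.5.1.1, and probe positions are on build mm7. The deposited scanner files hold each spot's mean and background intensity, a processed signal, and flags for spots well above background. On the 2-colour arrays the deposited LogRatio is a log10 ratio, with the red signal on top. The series matrix, also deposited, has log2 values, and how they were normalized is not given in the sources used here. Its medians are 0 to 0.01 for p400 ratios and 7.26 to 7.27 on single-colour arrays, and its p400 ratios follow the labelled dye order (r with LogRatio 0.815, -0.815, 0.823 and -0.797 on replicates 1 to 4).

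For p400, mean and background intensities were corrected with normexp (offset 50) and normalized by loess with control spots at weight 0. The limma model held knockdown and dye. For Tip60, each array's 75th percentile was subtracted from its log2 processed signals, and replicates 1, 2 and 4 were compared with 4 EGFP arrays. The 1639 control spots and outlier spots were left out. Only probes flagged well above background for 1 of the RNAs on 3 arrays or more entered the tests, and the brightest such probe stood for its gene. No member was dim on all arrays of a group, so no fold is a bound. Tests are two-sided, with Benjamini-Hochberg adjustment over all genes and a threshold of 0.05 (R 4.3.3, limma 3.58.1). The steps were tested on simulated data. Probe names matched the members in the files themselves; other genes were named through RefSeq. Replicates are called biological by the submitters. The precision of each value is limited by the number of arrays. The members and lists were chosen with earlier results of these data known. The text names all members, Ep400, Kat5, 4 ES cell genes and, per list and comparison, up to 2 rises and 2 falls past the threshold. Outside this rule, some genes of the lists are named for their brightness or change. These are Tpbpa, Tpbpb, Gcm1, Synb, Prl3d1, Prl3b1, Dcn, Lum, Acta2, Krt7, Krt8 and, in p400 knockdown, Dab2.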

Additional observations from a re-analysis of the deposited data

Results flagged for a closer look

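Tip60 replicate 3, which the comparison leaves out, lay above every EGFP array for 7 of the 11 probes while well above background. Its log2 level was -1.19 for Cdx2, -2.15 for Eomes and -2.07 for Hand1. It was -2.11 for the Gata2 3′ probe and -1.94 for the Gata2 5′ probe, -2.25 for Gata3 and -0.83 for Esx1. It lay below every EGFP array for Tfap2c, at 1.24. Plac1, at -3.70, was also above every EGFP array, but its probe was not well above background here, and nor was that of Elf5, at -5.81.

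The Gata2 5′ probe had a level of -2.85 on EGFP replicate 4, apart from -2.54, -2.58 and -2.54 on the other EGFP arrays, and the gap was large for the range of the group. Chance flags about 1 such group in 20. The Tip60 levels of that probe, -2.08, -2.04 and -2.02, lay above all 4.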

How the results depend on the processing

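Direction held for every member under every alternative run, except Tead4 in Tip60 knockdown, which was not called: -0.0149 with quantile normalization, -0.00077 with normexp and quantile normalization, and -0.17 with the array median. In p400 knockdown, 6 rises became 3 once the arrays were scaled to 1 spread, 2 when a 1.5-fold change was also asked, and 4 to 6 when 1 array was left out. Over all genes, 3766 rises became 1879 with the scaling, 1347 with the fold, and 1914 to 3207 when 1 array was left out. The 2 falls became 1 with the scaling, 1 with the fold, and 1 to 2 when 1 array was left out. Over all genes, 2811 falls became 547 with the scaling, 428 with the fold, and 1228 to 2541 when 1 array was left out. In Tip60 knockdown, 5 rises became 3 with normexp and quantile normalization, 1 with the array median and 3 with the series matrix. They became 3 with the replicate block, 1 with the fold, and 4 to 7 when 1 array was left out. Of the 3 with the replicate block, Elf5 was not among the 5. Within slide 3, with its single Tip60 array, the genes called included Hand1 (0.56), which was not among the 5 either. With replicate 3 included 7 rose, where 2279 of all 16949 genes did so. Over all genes, 2586 Tip60 rises became 1736 with normexp and quantile normalization, 1452 with the array median and 1704 with the series matrix. These all-gene rises became 1541 with the replicate block, 1290 with the fold, and 2071 to 2422 when 1 array was left out. The 1746 falls over all genes became 130 with the fold. The 1 fall became 0 within slide 3 and 0 with the fold. With every probe fitted, the p400 rises became 2 with the fold (4 to 6 with an array left out), and the falls 1 with the scaling or the fold (1 to 2). The Tip60 rises became 2 with the array median, 1 within slide 3, 2 with the replicate block and 1 with the fold (5 to 7), and the fall 0 within slide 3 and with the fold. The array median moved the median of all genes by -0.21 on the log2 scale. This base shifts every gene alike, so relative to the shift each member keeps its value by construction (Cdx2 at 0.43). That gives no support to the calls. Median centring of the p400 arrays moved the median of all genes by -0.11. Same-numbered Tip60 and EGFP arrays did not deviate together (r = -0.44, -0.14 and -0.27). Each of these pairs lay on different slides, so the check cannot tell whether the numbers give a pairing. Fewer arrays enter the slide, block and left-out fits; elsewhere the cause was not tested. Tfap2c, Hand1 and Esx1 in p400 and Plac1 in Tip60 knockdown passed under all alternatives, and Gata2 in p400 under all but the fold, at 1.45-fold. Signal near background limits Cdx2 and Elf5 in p400 knockdown.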
